A study of Mus musculus with 8 samples.

Results

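SNARE proteins, synaptotagmins and their syntaxin-binding partners are the machinery by which one membrane fuses with another. In the transcriptome of the mouse pineal gland 49 protein-coding genes of these families were found by their gene symbols, that is, numbered syntaxins (Stx), VAMPs, synaptotagmins (Syt) and syntaxin-binding proteins (Stxbp), and the SNAP-25 family members Snap23, Snap25, Snap29 and Snap47, out of 21980 protein-coding genes. Of the 49 genes, 45 had a mean of at least 1 FPKM, a fragment count scaled by the length of the transcript and the size of the library, over all libraries, as had 13094 of all protein-coding genes, and these entered the test. The genes were picked by symbol and not by their values.

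RNA sequencing was made from pools of pineal glands, with 4 libraries of 5xFAD mice, numbered 1, 2, 3 and 21 by their titles, and 4 of wild type (WT) C57BL/6 mice, numbered 11, 21, 22 and 23, and values are given per library in that order. A library came from the glands of 5 to 7 mice, stated to be male, which were 5 months old and were sampled 0.5 h after lights on (zeitgeber time) under 12 h of light a day. The 5xFAD mice carry mutant human transgenes, APP among them, under the Thy1 promoter, which acts mainly in neurons, and model Alzheimer's disease by a high output of Aβ. They came from another supplier than the wild type mice, so supplier and genotype cannot be told apart.

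All libraries carried pineal transcripts. The 10 pinealocyte markers, with Tph1, Asmt and Crx among them, summed to 2035 to 3324 FPKM in 5xFAD and to 1319 to 3101 FPKM in WT, and 0 of them had a mean under 1 FPKM. The steps between the lowest values of genes with a single transcript put 1 fragment on a transcript of 2000 nt at 0.0275 to 0.0455 FPKM. WT-22 stood against the stated sex of the mice. It had 13.3 FPKM of Xist, the RNA of the inactive X chromosome of female cells, where the other 7 libraries had 0.0048 to 0.0404 FPKM, while Ddx3y, of the Y chromosome, was at 32 FPKM or above in all 8. The main results that rest on WT-22 are therefore given also without it. The 7 neutrophil markers, among them Ltf and Mpo, summed to 23 to 247 FPKM in 5xFAD and to 20.02 to 442 FPKM in WT, with the lowest mean log2 deviation in WT-22 (−2.28) and 5xFAD-21 (−2.19) and the highest in WT-11 (2.37). In these pools, fewer cells of a type and less RNA per cell cannot be told apart.

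A SNARE complex forms when a VAMP on a vesicle (an R-SNARE) zips together with a syntaxin and a SNAP-25 family protein on the target membrane (the Q-SNAREs). Sec1/Munc18 proteins hold and template the syntaxin, and synaptotagmins sense calcium through their C2 domains and trigger release. Pinealocytes share an origin with photoreceptors and hold synaptic ribbons, the plate-like vesicle stations of sensory cells. At the ribbon synapses of the retina, syntaxin 3 takes the place that syntaxin 1 has at conventional synapses. Melatonin itself is thought to leave the cell without vesicles, whereas glutamate and peptides are stored in them.

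Promoter sequences show the genes that the results turn on at the start of transcription, and were available for 38 of the member genes. The 250 bases before the start are shown for Stx3 and Vamp8, the highest syntaxin and the highest VAMP, for Stx1a, the conventional synaptic paralog of Stx3 that was low, and for Syt10, the member whose groups did not overlap. They are RefSeq sequences of GRCm38.p6, written 5′ to 3′ on the strand of the gene, at chr19:11819404-11819653 (minus strand, Stx3), chr6:72390668-72390917 (minus strand, Vamp8), chr5:135023232-135023481 (plus strand, Stx1a) and chr15:89841861-89842110 (minus strand, Syt10), and capitals mark matches to the motifs given next.
Stx3: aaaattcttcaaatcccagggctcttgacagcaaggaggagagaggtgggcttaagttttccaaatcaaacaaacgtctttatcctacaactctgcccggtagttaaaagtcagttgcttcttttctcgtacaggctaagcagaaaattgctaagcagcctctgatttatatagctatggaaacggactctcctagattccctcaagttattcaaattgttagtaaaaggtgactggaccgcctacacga
Stx1a: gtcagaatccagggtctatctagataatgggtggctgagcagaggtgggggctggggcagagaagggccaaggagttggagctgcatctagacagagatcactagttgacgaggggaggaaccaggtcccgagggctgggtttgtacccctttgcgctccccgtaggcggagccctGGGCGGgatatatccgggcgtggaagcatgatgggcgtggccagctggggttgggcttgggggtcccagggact
Syt10: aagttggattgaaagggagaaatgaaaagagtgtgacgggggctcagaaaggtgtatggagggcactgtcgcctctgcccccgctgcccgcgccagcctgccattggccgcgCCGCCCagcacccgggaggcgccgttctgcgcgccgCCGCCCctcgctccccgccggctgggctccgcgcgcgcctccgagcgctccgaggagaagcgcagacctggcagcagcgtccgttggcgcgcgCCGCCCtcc
Vamp8: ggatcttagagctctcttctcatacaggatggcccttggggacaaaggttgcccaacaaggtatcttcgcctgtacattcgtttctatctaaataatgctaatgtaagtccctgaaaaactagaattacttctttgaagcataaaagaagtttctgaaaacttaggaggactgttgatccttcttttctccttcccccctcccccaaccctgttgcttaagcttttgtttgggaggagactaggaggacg

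Capitals in these sequences mark the GC box GGGCGG or its reverse CCGCCC, which Sp1 binds, and no other motif searched was present in them. Syt10 had 3 such matches, which began 138, 102 and 9 bases before the start, and Stx1a had 1, which began 74 bases before it, while Stx3 and Vamp8 had 0. A GC box was in 30 of the 49 promoters of the 38 member genes, and in 32.7% of all 32851 promoters of the same length. The share of G and C was 42% in Stx3 and 43.6% in Vamp8, against 62% in Stx1a and 72% in Syt10. Its median was 61.2% over the 49 member promoters and 52.4% over all promoters. The part of this composition in the number of GC boxes was not tested. The core TAATCC (reverse GGATTA) of CRX and OTX2, factors of pinealocyte identity, was in 0 of the 49 member promoters and in 6.25% of all promoters. The cAMP response element TGACGTCA, the same on both strands, was in 1 of the 49, of Stxbp3, and in 1.55% of all promoters. These are matches of letters within 250 bases, and a lack of a match says only that the letters are not there.

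The level of the members was led by the neural SNAREs and by Vamp8. Summed over the 49 genes, the libraries held 1450 to 1684 FPKM in 5xFAD and 1108 to 1922 FPKM in WT, and Snap25, Stx3, Vamp8 and Vamp2 together made up 47.2 to 53.4% of this sum in 5xFAD and 45.6 to 56.1% in WT. By mean level 6 members stood at 50 FPKM or above, 14 from 20 to 50 FPKM, 12 from 5 to 20 FPKM, 13 from 1 to 5 FPKM, and 4 were below 1 FPKM. In order the highest were Snap25 at a mean of 451 FPKM, Stx3 at 131, Vamp8 at 99.7, Vamp2 at 99.5, Snap47 at 65.9 and Syt1 at 50.9. Snap25 stood above Stx3 in 8 of 8 libraries and Vamp2 above Snap47 in 8 of 8. Stx3 stood above Vamp8, Vamp8 above Vamp2, and Snap47 above Syt1 in only 5 of 8 each, so these neighbours did not differ beyond their spread. FPKM is a value per length, so levels of different genes can be set side by side.

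**Figure D1:**
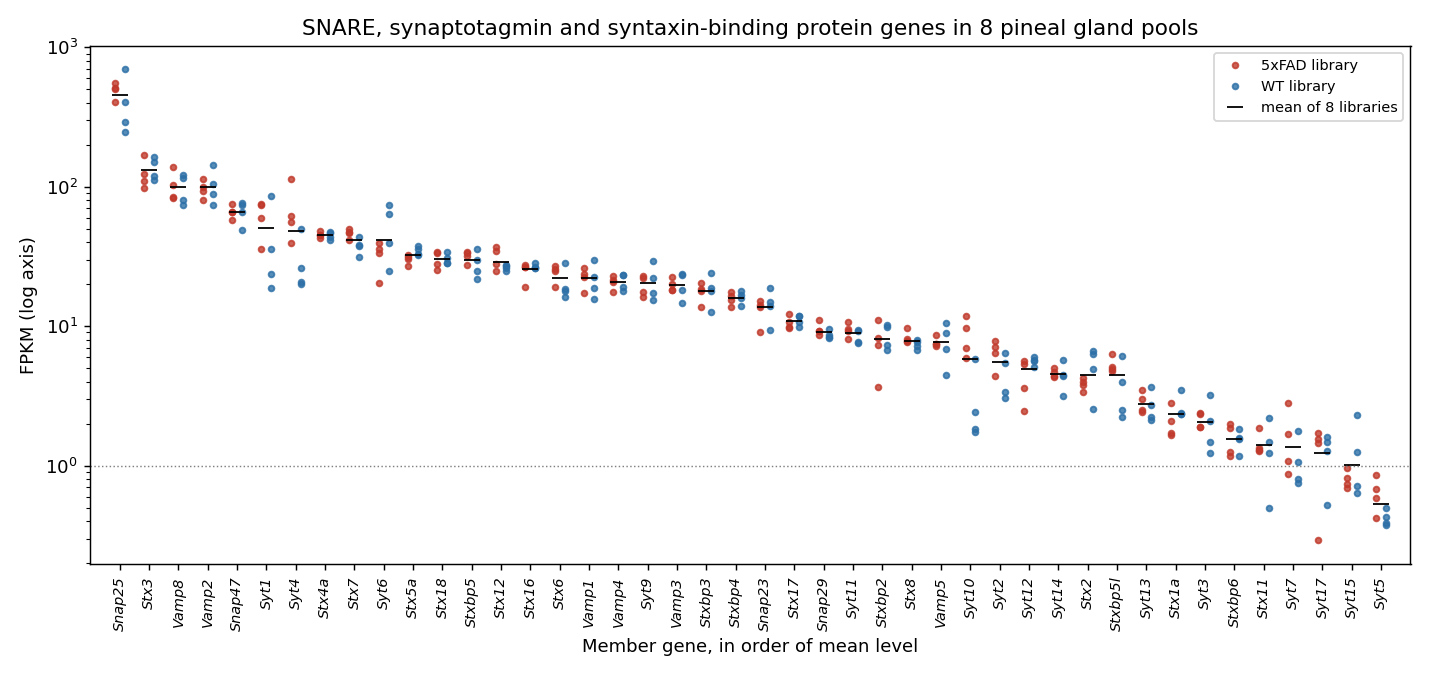
Level of members with a mean of at least 0.3 FPKM in every library (y axis, FPKM on a log scale), in order of the mean over 8 libraries (black bar), with 5xFAD libraries in red left of WT libraries in blue and a dotted line at 1 FPKM. Snap25 leads at a mean of 451 FPKM, and Stx1a stands far below Stx3.

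Among the syntaxins of the plasma membrane, Stx3 was the abundant member. Stx3, on chromosome 19 of GRCm38 from 11775118 to 11819403 on the minus strand, had 169, 97.5, 123 and 110.0 FPKM in the 5xFAD libraries, against 111, 120.1, 164 and 151 FPKM in the WT libraries. Stx1a, the syntaxin of conventional synapses, had 1.66, 2.07, 2.80 and 1.71 FPKM in the 5xFAD libraries, against 3.49, 2.36, 2.38 and 2.34 FPKM in the WT libraries. The mean of Stx3 was 55.6 times that of Stx1a, and the groups overlapped for both. The log2 fold change in 5xFAD over WT was −0.14 for Stx3 (95% interval −0.59 to 0.31) and −0.35 for Stx1a (−0.88 to 0.17), with adjusted p from limma of 0.845 and 0.71. Stx4a, a widely used plasma membrane syntaxin, was the steadiest named member, with 47.9, 45.1, 44.8 and 42.9 FPKM in 5xFAD, against 47.2, 41.5, 46.4 and 43.8 FPKM in WT (log2 fold change 0.02, adjusted p = 0.967). Stx2 had a mean of 4.48 FPKM, and Stx19, of epithelia, was listed at 0 in 7 libraries and at 0.0203 FPKM in 5xFAD-3.

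Stx1a was highest within 5xFAD in 5xFAD-3. This library also had the highest neuron marker score, at a mean log2 deviation of 1.85 where the other 7 libraries had −0.589 to −0.0151, and 6.21 FPKM of Gad1, an enzyme of GABA synthesis, against at most 0.58 FPKM elsewhere. Of the 7 neuron markers 5 had a mean under 1 FPKM. The more abundant Slc17a6 and Syn1 were not highest in 5xFAD-3. Slc17a6 was at 48.4 FPKM there and 118 FPKM in 5xFAD-2, and Syn1 at 7.76 FPKM there and 11.5 FPKM in WT-22. Over all 8 libraries Stx1a was highest in WT-11, at 3.49 FPKM, where the neuron score was −0.149. Syt7, a slow calcium sensor of release, was highest in 5xFAD-3. It had 0.868, 1.67, 2.81 and 1.07 FPKM in 5xFAD, against 1.76, 1.07, 0.754 and 0.803 FPKM in WT. The part of neuronal tissue in these values was not tested.

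Snap25 was the most abundant of the SNAP-25 family and of all members. Snap25, on chromosome 2 from 136713453 to 136782428 on the plus strand, had 554, 404, 512 and 505 FPKM in the 5xFAD libraries, against 246, 289, 692 and 407 FPKM in the WT libraries. WT-22 was the highest of all libraries, and 5xFAD-2 was below WT-23, so the groups overlapped. The means were 494 ± 63.4 FPKM in 5xFAD and 408 ± 201 FPKM in WT (SD, n = 4 each), a log2 fold change of 0.38 (95% interval −0.31 to 1.08, adjusted p = 0.749 from limma). It was 0.68 without WT-22 (adjusted p = 0.177), 0.18 without WT-11 and 0.26 without WT-21. Snap23, the widely expressed paralog, had 9.12, 15.3, 13.8 and 14.2 FPKM in 5xFAD, against 18.7, 14.9, 9.39 and 13.9 FPKM in WT, and the mean of Snap25 was 33 times that of Snap23. Snap47, a family member that lacks palmitoylation sites, had 74.7, 65.8, 58.0 and 65.5 FPKM in 5xFAD, against 48.9, 65.6, 73.3 and 75.8 FPKM in WT. Snap29, of autophagosome fusion, had a mean of 9.11 FPKM.

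Of the 6 VAMPs 0 passed an adjusted p of 0.05 in limma, where 0.0382% of all genes tested did. Vamp8, which serves endosome fusion and regulated secretion in exocrine and blood cells, had 83.1, 103, 84.6 and 137 FPKM in 5xFAD, against 74.4, 121, 79.6 and 116 FPKM in WT. Vamp2, the vesicle SNARE of neurons and endocrine cells, had 93.2, 80.0, 114 and 99.8 FPKM in 5xFAD, against 74.2, 88.0, 142 and 105 FPKM in WT. The groups overlapped for both, and the log2 fold changes were 0.07 (adjusted p = 0.941) and −0.05 (0.953). Vamp1, the close paralog of Vamp2, had 23.7, 17.2, 26.1 and 22.3 FPKM in 5xFAD, against 15.6, 18.6, 29.9 and 22.4 FPKM in WT, and Vamp3, or cellubrevin, had 18.0, 22.4, 20.001 and 18.1 FPKM in 5xFAD, against 23.3, 23.5, 14.6 and 18.2 FPKM in WT. The directions of Vamp1, Vamp2, Vamp3 and Vamp8 turned with the scaling or with the library left out, and their intervals reached at most 0.56 from 0. Vamp4, of the trans-Golgi network, and Vamp5, of muscle, had means of 20.8 and 7.68 FPKM and log2 fold changes of −0.02 and 0.06.

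To ask whether the balance of neural or ribbon forms to their relatives differed by genotype, 4 ratios were compared within libraries. The ratio of Snap25 to Snap23 was 60.1, 26.3, 36.9 and 35.3 in the 5xFAD libraries, against 13.1, 19.3, 72.9 and 29.02 in the WT libraries, so WT-22 exceeded all others. The log2 difference, 5xFAD minus WT, was 0.49 for Snap25 to Snap23 (p = 0.429 by a two-sided exact permutation test over 70 ways, n = 4 each), 0.21 for Stx3 to Stx1a (p = 0.686), −0.05 for Vamp2 to Vamp3 (p = 0.8286) and 0.33 for Syt1 to Syt7 (p = 0.657). The adjusted p over the 4 ratios was 0.8286 for each, and 0.0286 is the smallest p that this design allows. Without WT-22 the difference for Snap25 to Snap23 was 0.96, with an exact p of 0.0857, and it was 0.35 for Stx3 to Stx1a, 0.26 for Vamp2 to Vamp3 and 0.90 for Syt1 to Syt7.

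Across all 45 tested members, 0 passed an adjusted p of 0.05 in limma, where 0.0382% of all genes tested passed. At an unadjusted p under 0.05, 3 were higher in 5xFAD, or 6.67% of the members where 4.6% of all genes were, and 0 were lower where 3.35% of all genes were, and 7.95% of all genes passed in either direction. These were Syt10, Syt4 and Stx7. The groups did not overlap for 1 member, Syt10, or 2.22% of the members where 2.11% of all genes stood higher without overlap and 4.34% did in either direction. The log2 fold change was above 0 for 27 members, or 60% where 48.7% of all genes were, and below 0 for 18. Its median was 0.06 beside −0.007 over all genes tested. By role, the median was 0.45 for 7 calcium-binding synaptotagmins, 0.22 for 5 endosome and trans-Golgi syntaxins, 0.08 for 7 other synaptotagmins, 0.11 for 4 tomosyns and other binding proteins, 0.07 for the 4 genes of the SNAP-25 family, 0.03 for 6 VAMPs, −0.03 for 3 Sec1/Munc18 genes, −0.06 for 6 plasma membrane syntaxins and −0.07 for 3 syntaxins of the ER, Golgi and autophagosome.

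**Figure D2:**
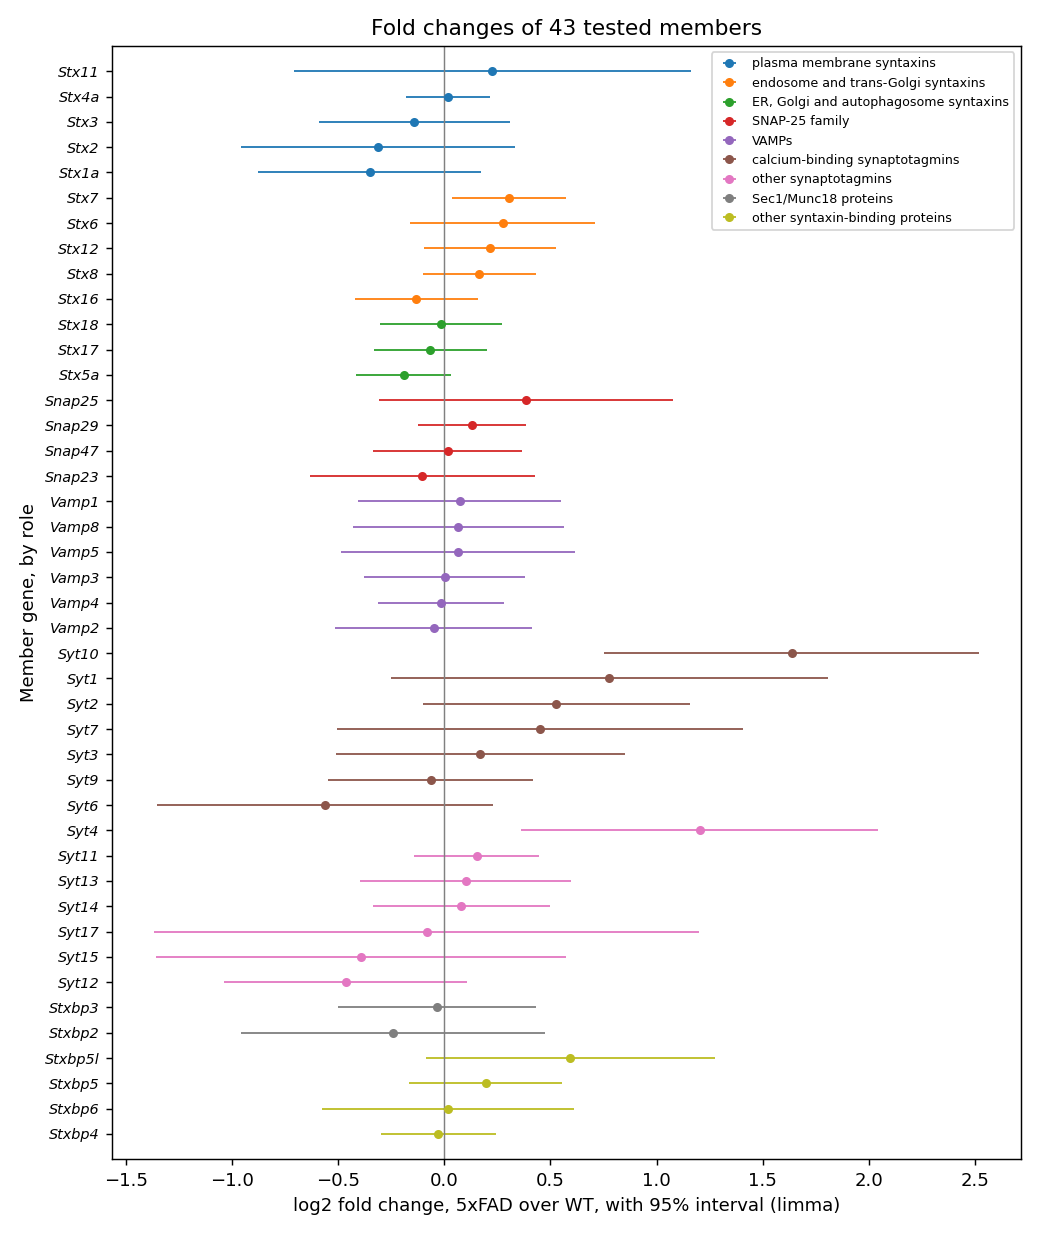
Log2 fold change of 43 of the 45 tested members in 5xFAD over WT (x axis) with its 95% interval from limma, coloured by role and ordered within a role by fold change. Only the intervals of Syt10, Syt4 and Stx7 lie clear of 0, before any adjustment for the number of genes tested.

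Syt10 had the largest fold change of the members. It encodes a calcium-binding synaptotagmin that controls the release of IGF-1 in neurons of the olfactory bulb, and its transcript was found in rat brain as one that rises after seizures. Syt10 lies on chromosome 15 of GRCm38 from 89782393 to 89841860 on the minus strand. It had 5.91, 11.9, 6.93 and 9.73 FPKM in the 5xFAD libraries, against 1.82, 1.75, 5.80 and 2.43 FPKM in the WT libraries. All 5xFAD libraries stood above all WT libraries, but 5xFAD-1 exceeded WT-22 by a small margin. The means were 8.61 ± 2.71 FPKM in 5xFAD and 2.95 ± 1.93 FPKM in WT (SD, n = 4 each), and limma gave a log2 fold change of 1.64 with a standard error of 0.39 and an adjusted p of 0.516. With WT-22 left out the log2 fold change was 2.01 and the adjusted p 0.0301, and with single other libraries left out it was 1.46 to 1.80 and did not pass (adjusted p 0.606 to 0.991). Among the libraries with title numbers under 20 (5xFAD-1 to 5xFAD-3 with WT-11) the log2 difference was 2.05, and among those numbered 21 to 23 (5xFAD-21 with WT-21 to WT-23) it was 1.70.

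Syt4 was higher at an unadjusted p only. It encodes a synaptotagmin of dense-core vesicles whose first C2 domain lacks a residue for calcium binding, and its transcript is an early response to depolarization in rat PC12 cells. Syt4 had 61.3, 114, 55.5 and 39.5 FPKM in 5xFAD, against 20.8, 20.1, 49.4 and 26.3 FPKM in WT. 5xFAD-2 stood far above the rest and 5xFAD-21 stood below WT-22, so the groups overlapped. In limma the log2 fold change was 1.20 with a standard error of 0.37 (adjusted p = 0.549), 0.91 without 5xFAD-2 and 1.49 without WT-22 (adjusted p = 0.0941). Syt4 and Syt10 varied together, with a Pearson r of 0.895 over 8 libraries, which share their scaling. 5xFAD-2, the highest library of both, also had 34.8 FPKM of Aanat, the night enzyme of melatonin synthesis, where the other 7 had 0.943 to 7.58 FPKM, and 69 FPKM of Fos, an immediate early gene, where 5xFAD-21 had 43.1 FPKM and the other 6 had 0.918 to 2.23 FPKM. Their part in Syt4 and Syt10 was not tested.

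**Figure D3:**
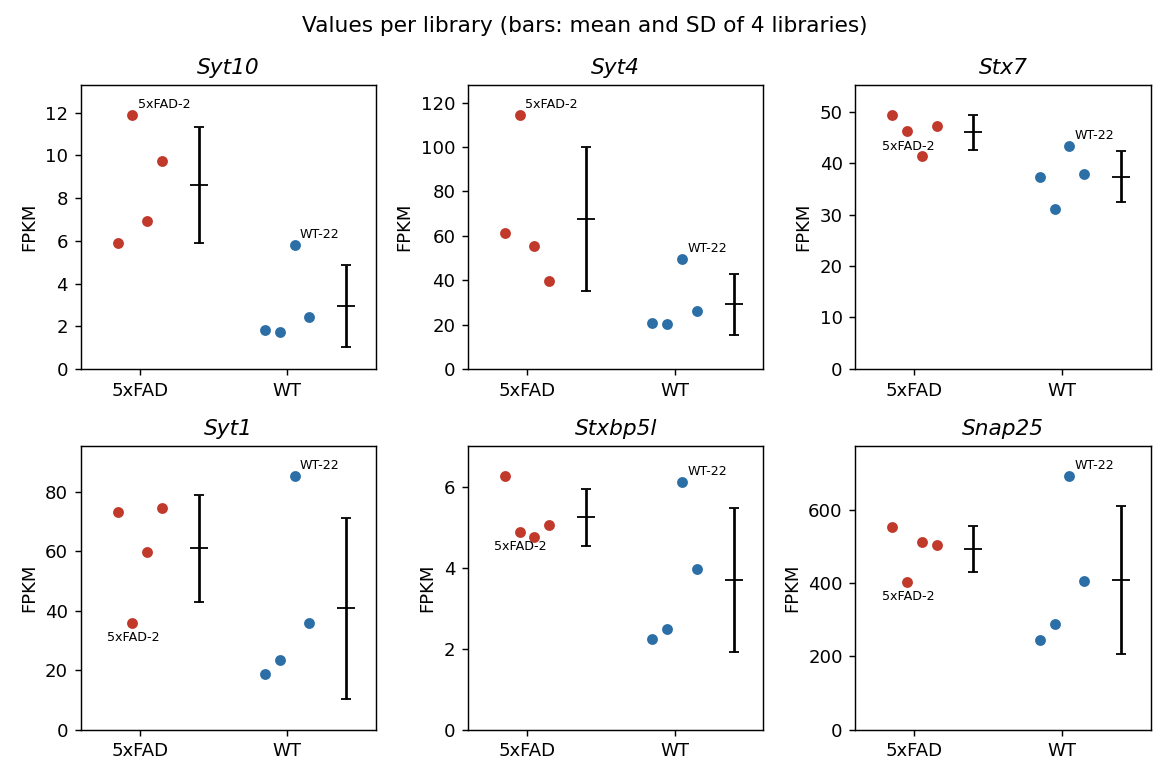
FPKM per library (y axis from 0) of 6 members in 5xFAD (red, left) and WT (blue, right), with the mean and SD of the 4 libraries beside the points and 5xFAD-2 and WT-22 labelled. WT-22 is the highest WT library for all 6, and for Syt1 and Snap25 it is the highest of all 8.

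Stx7 was the third member higher at an unadjusted p under 0.05. It encodes the Q-SNARE of late endosomes and lysosomes and had 49.3, 46.2, 41.3 and 47.2 FPKM in 5xFAD, against 37.3, 31.2, 43.3 and 37.9 FPKM in WT. Only 5xFAD-3 and WT-22 crossed. In limma the log2 fold change was 0.30 with a standard error of 0.12 (adjusted p = 0.600) and 0.38 without WT-22 (adjusted p = 0.173). Stx7 was no longer among the members at an unadjusted p under 0.05 without WT-11, WT-21, WT-23, 5xFAD-1, 5xFAD-2 or 5xFAD-21, each left out alone. Among the other endosome and trans-Golgi syntaxins, without regard to which of them pair with Stx7, Stx6 was at 0.27, Stx12 at 0.22 and Stx8 at 0.17. Stx16, of the trans-Golgi network, was at −0.13, and none of these passed. Stx12 had 34.6, 37.0, 28.0 and 24.7 FPKM in 5xFAD, against 26.2, 24.8, 27.1 and 27.5 FPKM in WT. Of the early secretory pathway, Stx5a, the syntaxin of the Golgi, had 31.3, 26.9, 32.5 and 30.2 FPKM in 5xFAD, against 32.8, 37.3, 35.5 and 32.3 FPKM in WT, a log2 fold change of −0.19 (adjusted p = 0.642).

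The fast calcium sensors of release varied widely within the WT group. Syt1, the sensor of synchronous release, had 73.3, 36.0, 59.8 and 74.5 FPKM in 5xFAD, against 18.8, 23.5, 85.2 and 35.8 FPKM in WT. Syt2, its paralog, had 7.85, 4.40, 7.09 and 6.42 FPKM in 5xFAD, against 3.04, 3.36, 6.39 and 5.39 FPKM in WT. For Syt1, WT-22 was the highest of all 8 libraries. For Syt2, WT-22 and WT-23 lay among the 5xFAD libraries, above 5xFAD-2. The log2 fold change of Syt1 was 0.78 (95% interval −0.25 to 1.81, adjusted p = 0.68 from limma) and 1.22 without WT-22 (adjusted p = 0.127), and that of Syt2 was 0.53 and 0.71. Syt6, a synaptotagmin of the acrosome and of brain, ran the other way, with 33.5, 20.5, 35.5 and 39.4 FPKM in 5xFAD, against 24.9, 39.6, 73.8 and 63.2 FPKM in WT (log2 fold change −0.56, adjusted p = 0.696). That value was −0.34 without WT-22, −0.36 without 5xFAD-2 and −0.16 with the title number series as a term, and −0.86 without WT-11, where Syt6 was lower at an unadjusted p under 0.05 (adjusted p = 0.733). Syt9 had a mean of 20.3 FPKM and a log2 fold change of −0.06, and Syt3 stood at 2.06 FPKM and 0.17. Syt5 lay below the filter with 0.59, 0.86, 0.68 and 0.422 FPKM in 5xFAD, against 0.494, 0.388, 0.429 and 0.376 FPKM in WT. The members next to the filter were Syt15, at a mean of 1.01 FPKM, and Syt5, at 0.53.

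Among the synaptotagmins that are not thought to bind calcium, Syt11 had a mean of 8.92 FPKM, Syt14 of 4.52 and Syt13 of 2.77, with log2 fold changes of 0.15, 0.08 and 0.10. Syt12 had 2.44, 5.35, 3.61 and 5.61 FPKM in 5xFAD, against 5.68, 6.05, 5.11 and 5.63 FPKM in WT (log2 fold change −0.46, adjusted p = 0.654). It was −0.23 without 5xFAD-1, and −0.62 without 5xFAD-21, where the unadjusted p was under 0.05 (adjusted p = 0.639). Syt12, Syt17 and Stxbp2 were lowest in 5xFAD-1, and Syt17 stood at 0.293 FPKM there and at 1.46 to 1.71 in the other 5xFAD libraries. The 4 markers of choroid plexus epithelium, with Folr1 and Kl, had a mean log2 deviation of −3.41 in 5xFAD-1 and of −0.274 to 1.04 in the other 7 libraries, and their part in these values was not tested. Syt8 and Syt16 were at 0.128 FPKM or below in every library, and Syt8 was listed at 0 in 4 of them.

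The syntaxin-binding genes were 3 Sec1/Munc18 genes and 4 others, which include the tomosyns. Of these, 0 passed an adjusted p of 0.05 in limma, where 0.0382% of all genes tested did. Stxbp5l, a tomosyn that holds syntaxin and SNAP-25 back from fusion, had 6.27, 4.89, 4.76 and 5.07 FPKM in 5xFAD, against 2.24, 2.5, 6.11 and 3.97 FPKM in WT, a log2 fold change of 0.59 (adjusted p = 0.641 from limma) and of 0.87 without WT-22 (adjusted p = 0.128). WT-22 lay among the 5xFAD libraries of this gene. Stxbp2, or Munc18-2, of epithelia and blood cells, had 3.69, 8.27, 7.36 and 11.1 FPKM in 5xFAD, against 7.36, 10.2, 6.71 and 9.89 FPKM in WT. Stxbp5, the other tomosyn, had a log2 fold change of 0.20, Stxbp3 of −0.03, Stxbp4 of −0.03 and Stxbp6, or amisyn, of 0.02.

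The number of members that parted by genotype depended on WT-22. It was the highest WT library for 21 of 45 members and the lowest for 15. WT-11 was the highest for 9 and the lowest for 17, WT-21 for 10 and 10, and WT-23 for 5 and 3. The same counts over all genes were not made. Without WT-22, 10 members were higher in 5xFAD at an unadjusted p under 0.05, or 22.2% of the members where 9.61% of all genes were. Among them were Snap25, Stx6, Stx7, Stxbp5, Stxbp5l, Syt1, Syt2, Syt4 and Syt10. Only Stx2 was lower, or 2.22% where 8.47% of all genes were. At an adjusted p under 0.05, 1 member passed, Syt10, where 0.7% of all genes did. The groups did not overlap for 7 members that were higher (15.6% of the members where 9.16% of all genes did so) and for 2 that were lower, Stx2 and Syt12 (4.44% where 7.39% did). A share of members above or below that of all genes was not tested.

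Among themselves, some members varied with Snap25 and others against it. Over the 8 libraries and on the log2 scale, Snap25 had a Pearson r of 0.976 with Stxbp5, 0.973 with Syt1, 0.953 with Stxbp5l, 0.917 with Syt2, 0.896 with Vamp1 and 0.807 with Vamp2. It had an r of −0.91 with Stx2, −0.877 with Vamp3, −0.854 with Syt15, −0.845 with Stxbp3 and −0.836 with Snap23. The widely used Stx4a had an r of 0.253 with Snap25. Snap23 and Stxbp3 formed the closest pair, with an r of 0.982. Over all 990 pairs the median r was −0.007, and 17 pairs had an r above 0.9 and 6 an r below −0.9. These values describe 8 libraries that share their scaling, and have no test.

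**Figure D4:**
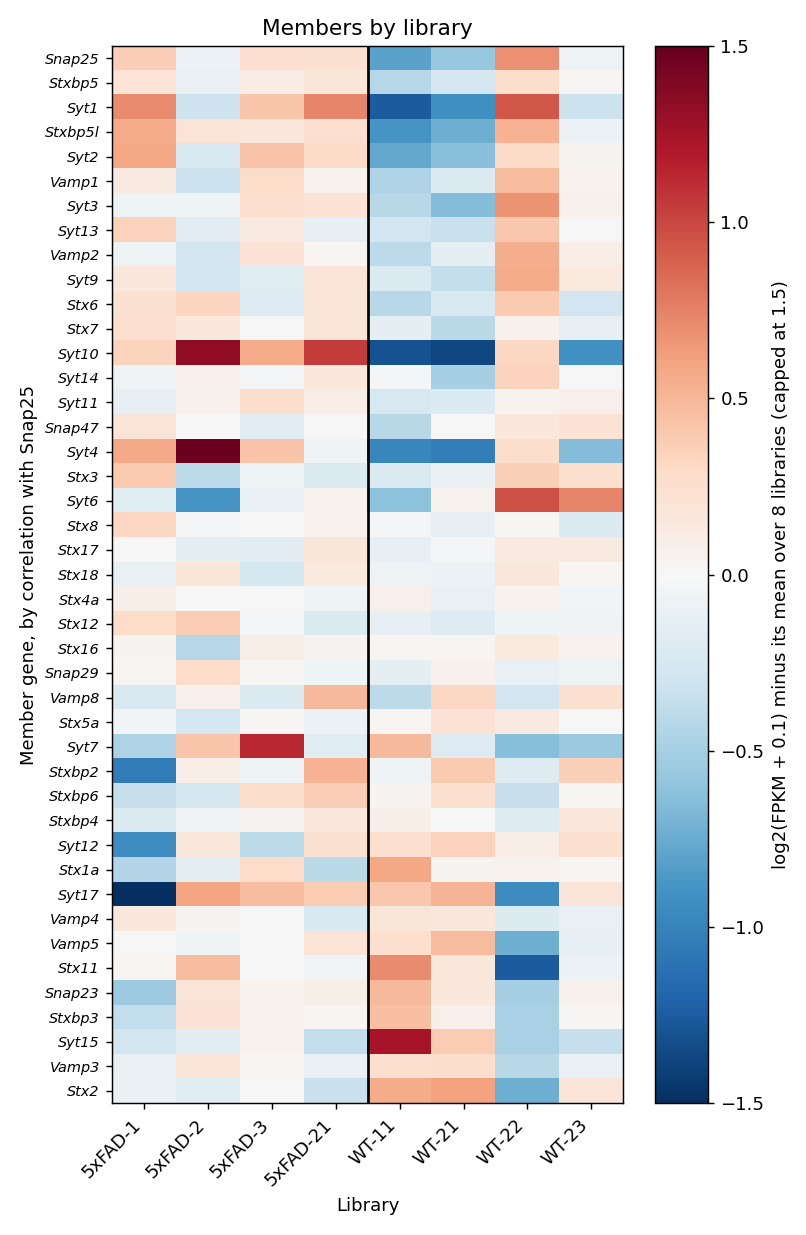
Deviation of log2(FPKM + 0.1) from its mean over 8 libraries (colour, capped at 1.5) for 43 of the 45 tested members, ordered from top to bottom by their correlation with Snap25, with 5xFAD libraries left and WT libraries right of the black line. The upper rows are high in WT-22 and low in WT-11 and WT-21, and the lowest rows show the reverse.

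Members and neutrophil markers were also set side by side. The mean log2 deviation of 7 neutrophil markers was compared with 8 members across the 8 libraries. For Syt1 the Pearson r was −0.847 (p = 0.0102 by an exact permutation test of all pairings, adjusted p = 0.0552 over the 8 members) and the Spearman rho −0.833 (p = 0.0154, adjusted p = 0.123), and for Snap25 the r was −0.811 (exact p = 0.0161, adjusted p = 0.0552) and the rho −0.714 (p = 0.0576, adjusted p = 0.154). Snap23 had an r of 0.733 (exact p = 0.0429, adjusted p = 0.0858) and a rho of 0.595 (p = 0.132, adjusted p = 0.264). Stx11, a syntaxin that cytotoxic lymphocytes need to release their granules, had an r of 0.738 (exact p = 0.0207, adjusted p = 0.0552) and a rho of 0.738 (p = 0.0458, adjusted p = 0.154). None of the 8 passed when adjusted. Other marker scores differed between the same libraries. The osteoblast score was −2.48 in 5xFAD-21, 2.26 in WT-11 and −1.93 in WT-22. In the same order, the endothelium score was −1.04, 0.744 and −0.700, and the microglia score −0.787, 0.607 and −0.505. The pinealocyte score was −0.0039 in 5xFAD-21, −0.382 in WT-11 and 0.331 in WT-22. It was 0.392 in 5xFAD-1, 0.388 in 5xFAD-2 and −0.401 in WT-21. Only the neutrophil score was compared with the members, and the part of these cell types in the members' values was not tested. Stx11 had 1.34, 1.85, 1.30 and 1.27 FPKM in 5xFAD, against 2.20, 1.48, 0.495 and 1.23 FPKM in WT. The r was −0.624 for Vamp2, −0.446 for Stx3, −0.239 for Vamp8 and 0.127 for Stxbp2, with adjusted p of 0.156, 0.359, 0.637 and 0.788, so the abundant Vamp8 was not shown to follow these markers, and the rho was −0.548, −0.357, −0.19 and 0.0714, with exact p of 0.171, 0.389, 0.665 and 0.882. Without WT-22 and 5xFAD-21, the libraries farthest from the median score, r was −0.748 for Syt1, −0.756 for Snap25, 0.616 for Stx11 and 0.929 for Snap23, and 0.572 for Stxbp2.

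**Figure D5:**
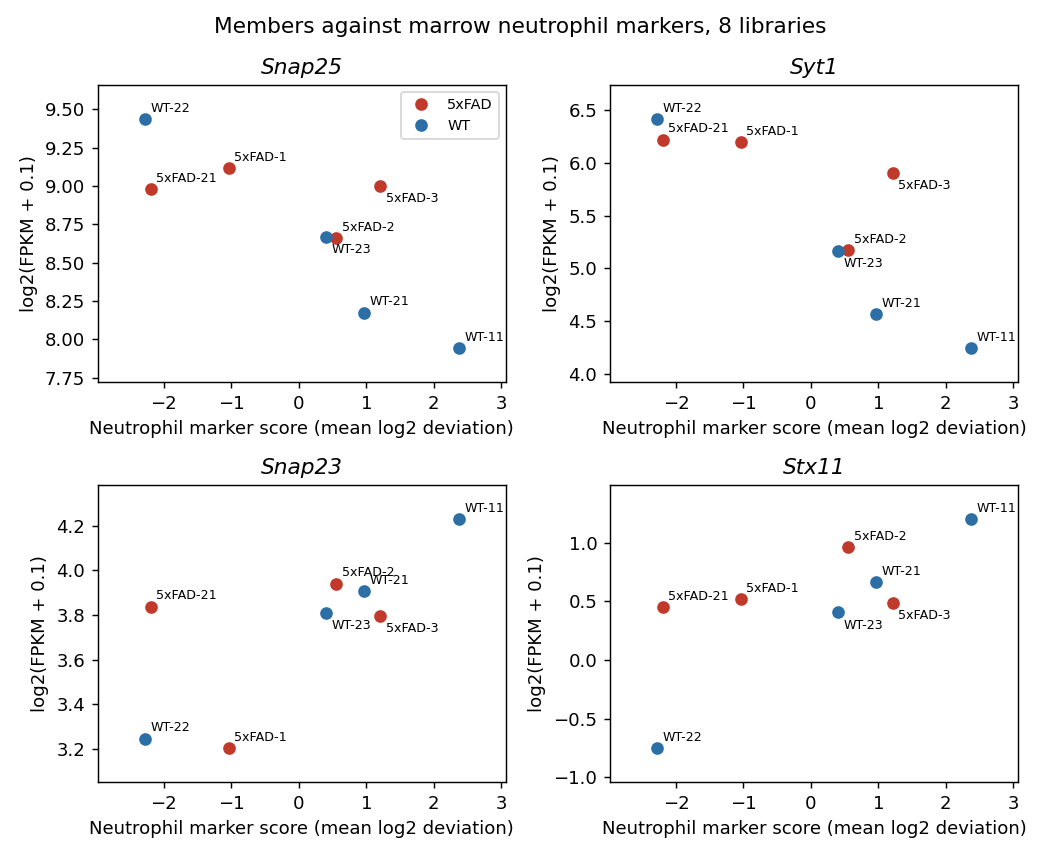
Level of 4 members (y axis, log2(FPKM + 0.1)) against the mean log2 deviation of 7 neutrophil markers (x axis) in 5xFAD (red) and WT (blue) libraries. WT-22 and 5xFAD-21 lie at the low end of the marker score and WT-11 at the high end.

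Beyond the members, 51 further genes of the fusion machinery were described. Of these 51 genes in lists of other SNAREs, SM proteins, disassembly factors, regulators of fusion and C2 relatives, 44 were tested. Their median log2 fold change was 0.06, and 0 passed an adjusted p of 0.05 in limma, where 0.0382% of all genes tested did. At an unadjusted p under 0.05, 7 were higher (15.9% of the 44, where 4.6% of all genes were) and 2 lower (4.55%, where 3.35% were). The difference of these shares was not tested. Nsf, the ATPase that takes spent SNARE complexes apart, had 170, 145, 139 and 143 FPKM in 5xFAD, against 78.8, 85.5, 150 and 106 FPKM in WT, a log2 fold change of 0.55 (adjusted p = 0.593), and its adaptor Napb was at 0.07. Among 12 other SNAREs, Bet1, of transport between ER and Golgi, was at 0.29 and Vti1a, of the trans-Golgi network, at −0.26 (adjusted p = 0.600). Of 17 tested regulators, Doc2a, a calcium sensor of spontaneous release, was at 1.65 (adjusted p = 0.559) and Sv2a, a glycoprotein of synaptic vesicles, at −0.85 (0.58). Sytl5 was at 0.72 and Sytl3 at −0.67 among 6 C2 relatives, and Scfd1 at 0.13 and Vps33b at 0.12 among 5 SM proteins. Cplx3 and Cplx4, the complexins of retinal ribbon synapses, were chosen after their values were seen. Cplx3 had 295, 261, 213 and 282 FPKM in 5xFAD, against 177, 203, 363 and 255 FPKM in WT, and Cplx4 had 129.98, 132, 79.1 and 89.2 FPKM in 5xFAD, against 57.7, 65.0, 93.4 and 84.8 FPKM in WT. Their conventional relatives Cplx1 and Cplx2 had means of 5.89 and 6.81 FPKM.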

How the data were processed

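The values used were FPKM, which the authors computed per library with Cuffnorm on GENCODE M17 after trimming of paired reads with Trimmomatic and alignment to mm10 (GRCm38.p6) with STAR, from total RNA freed of ribosomal RNA in stranded libraries of 100 sequencing cycles. The tool versions and the library normalization in Cuffnorm are not given in the sources used here. The fragments behind a value were estimated from the steps of low values, and no source says that the pools of a group were independent beyond their labels, so p-values measure the spread between these libraries.

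Fold changes and p-values came from limma 3.58.1 in R 4.3.3 (lmFit, eBayes with a trend, two-sided) on log2 values with a pseudocount of 0.1 FPKM for 13094 protein-coding genes, all at a mean of 1 FPKM or more, with Benjamini-Hochberg adjustment over all of them. The log scale with a pseudocount understates changes of low genes. The fit was tested on simulated data. Named members were the 12 with the smallest p, the 12 with the highest mean, and a set of neural and blood cell forms, and of the other lists the 2 with the smallest p in each. Some members are counted but not reported by name here. Members, lists and alternatives were chosen with earlier results of these data known. Gene positions are of GENCODE M21, where all 49 IDs matched, and sequences of RefSeq. Python 3.11.15 was used for tables. Alternative settings comprised pseudocounts of 0.01 and 1, the filter removed or a minimum mean of 5 FPKM, 3 other scalings, the replicate number or the title number series as a term, no trend, and each library left out. Removal of a trend on GC content (lowess span 0.3) and leaving out WT-22 with 5xFAD-2 were chosen after seeing the data. The GC rate of the reads differed between the groups in the study's sequencing table, and it cannot be told apart from genotype. The deposited mean over all libraries was not used.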

Additional observations from a re-analysis of the deposited data

Results flagged for a closer look

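In 46 groups of 4 libraries (23 named members in 2 groups), 3 had a highest library set apart from the rest by more than Dixon's critical value, and chance gives about 1 in 20. Syt10 was at 5.80 FPKM in WT-22, the WT library that also carried Xist, with a gap of 0.832 of the range of the group. Stx1a was at 3.49 FPKM in WT-11, with a gap of 0.963. Stx11 was at 1.85 FPKM in 5xFAD-2, with a gap of 0.885.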

How the results depend on the processing

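Of 455 values of named members under 20 alternatives, 417 kept their direction and side of the threshold, 36 turned and 2 (Syt10) came to pass, at log2 fold changes of 2.01 without WT-22 and 1.84 without WT-22 and 5xFAD-2 (adjusted p 0.0301 and 0.0419 in limma). Over all alternatives Syt10 lay at 1.35 to 2.01. With the replicate number as a block (replicate block), 0 members passed, 2 were higher and 0 lower at an unadjusted p under 0.05, where 2.96% and 2.32% of all genes were, and the smallest adjusted p was 0.843. The correlations of same-numbered libraries were −0.04, 0.21, −0.34 and 0.24. They were not compared with those of libraries with unlike numbers, so they do not decide whether the numbers pair libraries. With the title number series as a term, 4 were higher and 1 lower (Stx1a), where 5.32% and 6.98% of all genes were, and the log2 fold change turned to −0.10 for Stx11, −0.034 for Stx4a, 0.036 for Stxbp2, 0.11 for Vamp2 and −0.12 for Vamp3. Without WT-22 and 5xFAD-2, 1 passed, 10 were higher and 1 lower, where 0.306%, 8.21% and 7.55% of all genes did so, and it turned to −0.27 for Stx11, 0.061 for Stx3, 0.21 for Vamp2, −0.20 for Vamp3 and −0.034 for Vamp8. Quantile normalization turned Snap47 to −0.080, Stx4a to −0.051, Vamp3 to −0.020 and Vamp8 to −0.047, and Vamp3 was at −0.00014 with a pseudocount of 1, −0.0049 with median-ratio scaling and −0.049 with the GC trend removed. With single libraries left out, 0 to 1 members passed, 2 to 10 were higher and 0 to 1 lower, while over all genes 0.0305 to 0.7% passed, 2.3 to 9.61% were higher and 1.62 to 8.47% lower, the median was 0.04 to 0.09, and the log2 fold change spanned −0.29 to 0.059 for Snap23, −0.12 to 0.091 for Snap47, −0.15 to 0.50 for Stx11, −0.019 to 0.042 for Stx4a, −0.46 to 0.066 for Stxbp2, −0.070 to 0.24 for Vamp1, −0.19 to 0.12 for Vamp2, −0.14 to 0.090 for Vamp3 and −0.088 to 0.18 for Vamp8. The log2 ratio differences spanned −0.034 to 0.36 for Stx3 to Stx1a, 0.14 to 0.96 for Snap25 to Snap23, −0.28 to 0.26 for Vamp2 to Vamp3 and −0.19 to 0.90 for Syt1 to Syt7. Scaling to the same protein-coding total left 3 members higher and 0 lower, but over all genes gave 888 higher and 217 lower, against 602 and 439 as deposited. The causes of these changes were not tested. A value of 1 FPKM rests on about 22 to 36.4 fragments if the transcript has 2000 nt, and on fewer if it is shorter.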
